A study of Mus musculus with 17 samples.

Results

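The dystrophin complex was followed in the mouse hippocampus through 9 of its genes: Dtna and Dtnb for the dystrobrevins, Dmd for dystrophin, Utrn for utrophin, Dag1 for dystroglycan, Sntb1 and Sntb2 for the beta syntrophins, and Sgce and Sgcb for the epsilon and beta sarcoglycans. Every probe set of the array that the platform annotation gives to exactly 1 of these symbols was kept, which made 35 probe sets of the 45101 on the array. A probe set is a group of short probes that reads 1 stretch of a transcript, so that several probe sets of a gene can read different transcripts of it. The 2 groups were 9 undisturbed mice, left alone in their home cages, and 8 mice kept awake there for 5 h by gentle handling from about lights-on. All were individually housed adult males of the strain C57BL/6J (genotype C57/BL6 in the labels), given as 2 months old in the labels and as 2 to 4 months old in the protocol, and all had been handled daily for 6 days beforehand. The whole hippocampus of each animal was dissected directly afterwards and its total RNA hybridised to its own array. No group was handled without losing sleep, so the effects of handling and of wakefulness cannot be told apart.

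Dystroglycan spans the cell membrane and ties the matrix outside the cell to dystrophin or utrophin inside it, which in turn bind actin. Dystrobrevins are relatives of the dystrophin tail that bind it directly and carry the syntrophins, which are adaptors for channels and signalling enzymes, while sarcoglycans form a membrane subcomplex beside dystroglycan. In brain the complex is known from astrocyte endfeet on blood vessels, where it anchors the water channel Aqp4, and from inhibitory synapses of neurons. Dtna gives rise to several transcripts through alternative promoters and splicing.

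The members were chosen with the contrast between the groups in view, Dtna in particular because its probe sets had moved apart. Differences between the groups are therefore given as a description, with no p-value for a single member, and call status in limma's fit over all 45037 tested probe sets is stated beside the share of all probe sets that had it. Values are log2 signals, differences are sleep-deprived minus undisturbed, and a called probe set has an adjusted p below the threshold of 0.05. The arrays had medians between 6.14 and 6.22, and 7 markers of neurons, among them Slc17a7 and Camk2a of excitatory ones, had a mean level between 11.43 and 11.83 on all 17. Choroid plexus markers varied widely between single arrays, with a mean level from 5.77 to 7.40 in undisturbed and from 5.81 to 7.68 in sleep-deprived animals. In RNA of a whole tissue, fewer cells of a type and less RNA per cell cannot be told apart.

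Of the 35 probe sets 1 rose, 1 fell and 33 were not called, against 1.81% of all probe sets called in either direction (0.584% higher and 1.23% lower). Both called probe sets belong to Dtna. Since the members were chosen from this contrast, nothing is read from that share. The median difference of the 35 was -0.013, and that of all 45037 probe sets was 0.011. Among probe sets with a mean signal of 6 or more it was -0.0178 for the 23 members and -0.0173 for all 23586. None of the other 8 genes had a called probe set, and an unequal-variance test called 2 of the 35, against 1.2% of all probe sets. An unadjusted p under 0.05 was found for 8 of the 35 and for 15.3% of all probe sets, and nothing is read from that count either.

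Dtna, the gene of alpha-dystrobrevin, is read by 7 probe sets. The probe set 1427588_a_at lay at 9.86, 10.07 and 10.19 in the undisturbed animals (lowest, median and highest) and at 10.17, 10.28 and 10.41 in the sleep-deprived ones. All 8 sleep-deprived animals were above the undisturbed mean, 7 of them above every undisturbed animal, and the ranges of the groups overlapped only between 10.17 and 10.19. It rose from 10.05 ± 0.11 (SD, n = 9) to 10.28 ± 0.07 (SD, n = 8), by 0.24 with a standard error (SE) of 0.05, or 1.18-fold. The probe set 1425292_at went the other way, from 10.05, 10.15 and 10.27 in undisturbed to 9.73, 9.92 and 10.03 in sleep-deprived animals. Here every sleep-deprived animal was below every undisturbed one, a separation in this direction that 0.349% of all probe sets showed. It fell from 10.15 ± 0.08 (SD, n = 9) to 9.91 ± 0.11 (SD, n = 8), by 0.25 (SE 0.05), or 1.19-fold. Of 9010 genes with several probe sets, 457 had a called one, and Dtna was the 1 gene with a probe set called higher and another called lower. Since Dtna was chosen because its probe sets had moved apart in this same contrast, nothing is read from that count.

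**Figure D1:**
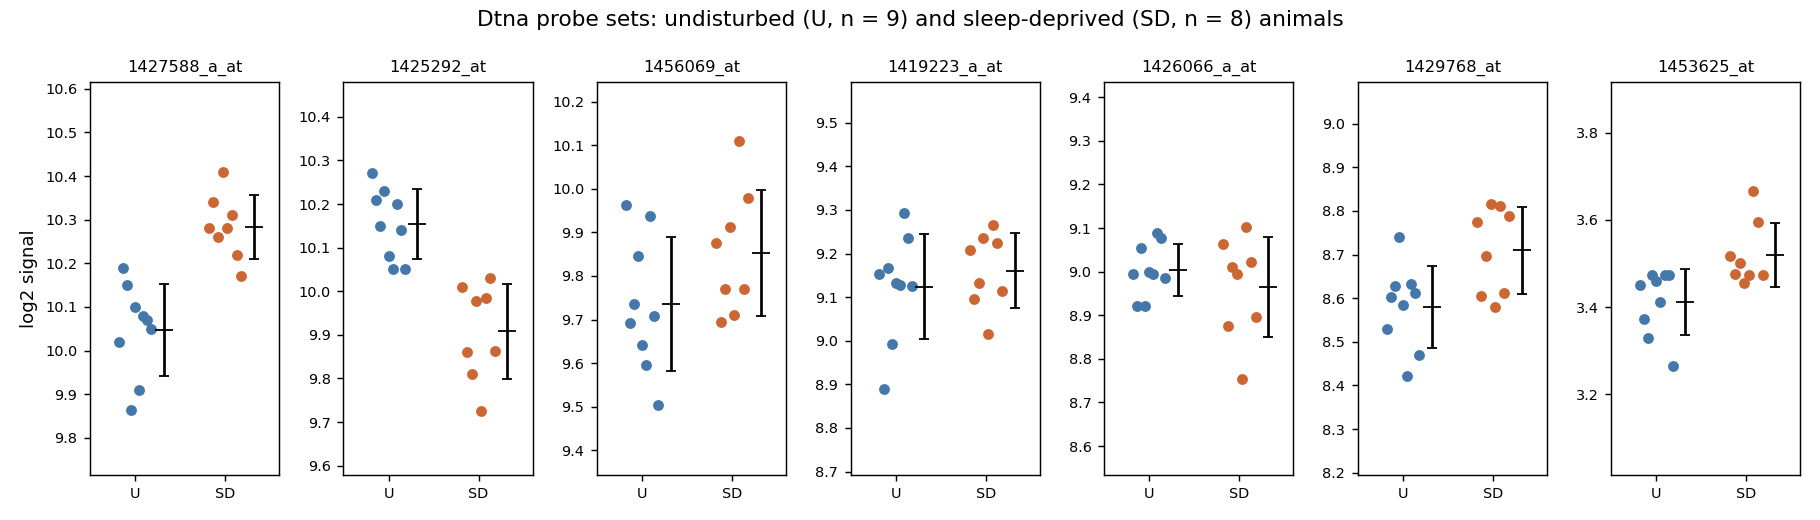
Log2 signal of the 7 Dtna probe sets, 1 panel each with its own axis of equal height, in undisturbed (U) and sleep-deprived (SD) animals. Points are animals, and the bars beside them are the mean and 1 SD: 1427588_a_at is higher in sleep-deprived animals by 0.24 and 1425292_at is lower by 0.25. The groups overlap in every panel except that of 1425292_at.

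Of the other 5 Dtna probe sets 4 had positive differences and none was called. Beside the called probe sets, 1429768_at had a difference of 0.13 (SE 0.05), with undisturbed animals between 8.42 and 8.74 and sleep-deprived ones between 8.58 and 8.82. The difference of 1456069_at was 0.12 (SE 0.07), and 6 of 8 sleep-deprived animals lay above the undisturbed mean. The probe sets 1419223_a_at and 1426066_a_at lay at 0.04 (SE 0.05) and -0.04 (SE 0.05), with wide overlap of the groups. The remaining probe set, 1453625_at, had a mean signal of 3.46 over the 17 arrays, at the 1.66 percentile of all probe sets, and a difference of 0.11 (SE 0.04). Such signals are among the lowest on the array. Probe sets with a mean signal below 6 had positive differences in 69.4% of 21451 cases, against 42.2% of the 23586 brighter ones.

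Probe sets of 1 gene were compared within each array, by taking each further probe set minus the one with the highest mean, and asking how far that quantity differed between the groups. Only its change is meaningful, since probe sets bind with unequal strength. For 1425292_at minus 1427588_a_at it ran from -0.01 to 0.36 in undisturbed animals and from -0.55 to -0.19 in sleep-deprived ones, so the groups did not overlap. The change was -0.48 (SE 0.06) and was called by limma over 16752 such pairs, of which 1.3% were called. In the same way 1426066_a_at changed by -0.27 (SE 0.06) against 1427588_a_at and was called, although its own level was not. Its own difference was -0.04 (SE 0.05). All 6 Dtna pairs share 1427588_a_at, which itself rose by 0.24, so their changes are not separate observations. Since Dtna was chosen because its probe sets had moved apart in this same contrast, nothing is read from the calls of its pairs. The call of 1426066_a_at was lost without undisturbed replicate 4, 6, 7 or 8 or sleep-deprived replicate 2 or 5. There the change lay between -0.27 and -0.25. Without undisturbed replicate 2, the animal with the lowest signal of 1419223_a_at, that probe set was called as well (change -0.25, and -0.20 in all 17 arrays). None of the 20 further pairs of the other genes was called, and their changes lay between -0.11 and 0.20, with 1 unadjusted p under 0.05, for Utrn 1426892_at.

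**Figure D2:**
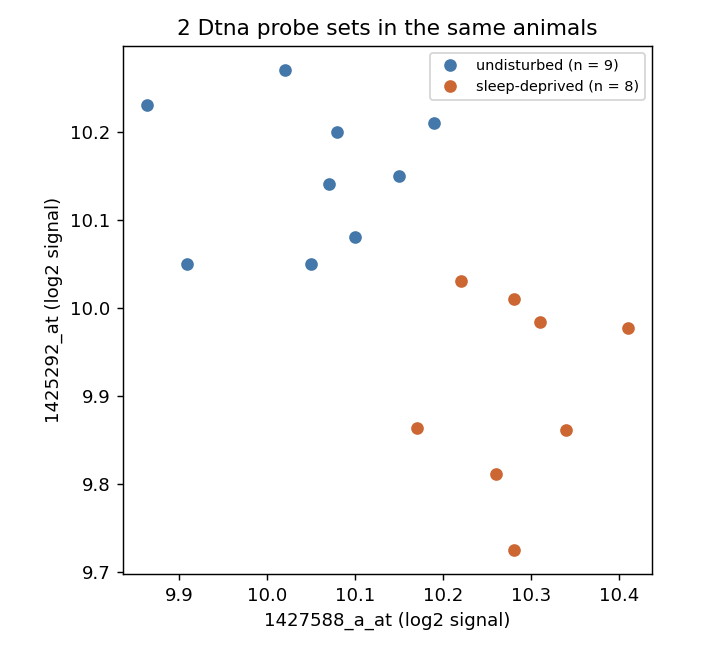
Log2 signal of the Dtna probe sets 1427588_a_at (horizontal) and 1425292_at (vertical) in each animal. The 9 undisturbed animals lie at the upper left and the 8 sleep-deprived ones at the lower right, with no trend inside either group (r = 0.059 and r = 0.15).

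Markers of other cells were followed beside Dtna. The 10 choroid plexus markers all had positive differences (median 0.29) and none was called, with 1 unadjusted p under 0.05 and 0 calls in an unequal-variance test. With their mean as a covariate the differences of 1427588_a_at and 1425292_at were 0.25 and -0.23, against 0.24 and -0.25 without it. Of 10 astrocyte markers 1 rose, the connexin gene Gjb6 (0.36, SE 0.08), and their median difference was 0.0031. Of 9 endothelial markers 1 fell, the transporter gene Slco1a4 (-0.32, SE 0.06), with a list median of 0.0098. An unadjusted p under 0.05 was found for 3 of these 9, all lower: Slco1a4, the receptor gene Tek (-0.26, SE 0.07) and the tight junction gene Cldn5 (-0.17, SE 0.07). The other 6 endothelial markers all had positive differences, and none of them was called or had an unadjusted p under 0.05. Of 10 pericyte and smooth muscle markers 1 fell, the growth factor receptor gene Pdgfrb (-0.37, SE 0.07), with a median of 0.0056. Mean marker levels ran from 10.98 to 11.07 in undisturbed and from 10.88 to 11.13 in sleep-deprived animals for astrocytes, from 8.17 to 8.47 and from 8.20 to 8.34 for endothelium, and from 7.96 to 8.48 and from 7.95 to 8.41 for pericytes and smooth muscle. The part of these 3 cell types in the Dtna differences between the groups was not tested. The excess of 3' over 5' signal in the control probe sets, a measure of RNA integrity, was 0.42 in sleep-deprived replicate 5 and between 0.20 and 0.30 in the other 16 animals. Without that animal the Dtna differences were 0.24 and -0.22.

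Dtnb encodes beta-dystrobrevin, the form known mainly from neurons. Its probe set 1437651_a_at lay between 8.15 and 8.37 in undisturbed and between 8.15 and 8.46 in sleep-deprived animals, with a difference of 0.01 (SE 0.05). The noisier 1445329_at ran from 6.22 to 6.97 and from 5.87 to 6.73, with a difference of -0.05 (SE 0.11). Neither was called, and the groups overlapped almost fully.

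Dmd encodes dystrophin, whose internal promoters give short proteins that keep the tail to which dystrobrevin binds, and the shortest of these is abundant in brain. RefSeq (GRCm38.p6) lists 2 start windows for it, shown here because dystrophin products of different length begin at different starts, to which the deposited table does not assign the 4 probe sets. The outer start lies 2256 kb before the annotated end of the gene and 134 kb inside its annotated beginning, and the inner one 157 kb before the end, on the plus strand. The 250 bases before each are given 5′ to 3′, with TATAAA and GGGCGG, the recognition letters of Sp1-type factors, in capitals on either strand.
Dmd outer start, chrX:82948620-82948869: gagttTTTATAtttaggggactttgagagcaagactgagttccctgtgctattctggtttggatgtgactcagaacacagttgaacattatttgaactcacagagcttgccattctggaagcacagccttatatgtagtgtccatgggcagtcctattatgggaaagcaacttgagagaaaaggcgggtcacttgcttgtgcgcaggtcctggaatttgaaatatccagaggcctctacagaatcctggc
Dmd inner start, chrX:85048045-85048294: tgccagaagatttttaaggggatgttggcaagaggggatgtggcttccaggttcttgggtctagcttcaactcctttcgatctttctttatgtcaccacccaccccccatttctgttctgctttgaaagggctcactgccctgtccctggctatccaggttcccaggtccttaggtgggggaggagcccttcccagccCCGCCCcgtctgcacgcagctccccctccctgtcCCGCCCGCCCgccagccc
The outer window holds 1 TATAAA on the reverse strand and no GGGCGG, has a GC content of 45.2% and 2 CpG. The inner window holds 3 GGGCGG on the reverse strand, of which 2 overlap, no TATAAA, a GC content of 60.0% and 7 CpG. Among 32851 windows of that length 12.4% held TATAAA and 32.7% held GGGCGG on either strand. These are matches of letters and not shown to be sites.

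Of the 4 Dmd probe sets 3 had negative differences and none was called. The brighter 1417307_at ran through 9.10, 9.19 and 9.33 in undisturbed and 9.07, 9.11 and 9.23 in sleep-deprived animals, with 4 of 8 below every undisturbed animal and a difference of -0.08 (SE 0.04). For 1448665_at the difference was -0.10 (SE 0.08), with ranges of 8.42 to 8.88 and 8.24 to 8.85. The other pair of probe sets had mean signals of 4.37 and 3.96, where differences of -0.04 (SE 0.07) and 0.00090 (SE 0.07) were measured. Utrn encodes utrophin, the relative of dystrophin found in vessel walls and many other cells. Its probe set 1452222_at ran from 9.11 to 9.37 in undisturbed and from 9.08 to 9.37 in sleep-deprived animals, with a difference of -0.06 (SE 0.05). The dimmer 1427569_a_at and 1426892_at lay at 0.05 (SE 0.07) and 0.13 (SE 0.06), so the 3 Utrn probe sets did not share a sign and none was called.

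Dag1 is the gene of dystroglycan. Its 4 probe sets had differences between -0.03 and -0.0088, each with an SE of 0.05, and none was called. After quantile normalization all 4 were positive, between 0.00095 and 0.021. The probe set 1426778_at ran through 10.33, 10.45 and 10.52 in undisturbed and 10.19, 10.46 and 10.57 in sleep-deprived animals. Probe sets with the suffix _x_at, of which Dag1 has 2, hold probes that can also bind other transcripts. In all 4 the groups overlapped.

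The beta syntrophins are scaffold proteins that bind both dystrophin and dystrobrevin. For Sntb1 1 of 6 probe sets had a mean signal of 6 or more, 1436204_at, at 6.59 to 6.96 in undisturbed and 6.49 to 7.01 in sleep-deprived animals, with a difference of -0.03 (SE 0.06). Its other 5 lay between -0.15 and 0.11. For Sntb2 the probe sets 1420372_at and 1420371_at had differences of -0.0069 (SE 0.08) and 0.10 (SE 0.07). The other 2, 1449840_at and 1436986_at, had mean signals of 3.97 and 3.63, and all 8 sleep-deprived animals were above the undisturbed mean in each (differences 0.14 and 0.19, SE 0.05 and 0.07). Among all members 4 probe sets had every sleep-deprived animal above the undisturbed mean, against 4.19% of all probe sets, and 3 of these 4 had mean signals below 4. The reverse, every sleep-deprived animal below that mean, held for 1 member probe set, Dtna 1425292_at, against 4.96% of all. No syntrophin probe set was called.

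Sgcb encodes beta-sarcoglycan, and all 3 of its probe sets had negative differences. Of all probe sets with a mean signal of 6 or more, 42.2% had positive ones. The probe set 1419668_at was held within 9.45 to 9.54 in the undisturbed animals, with an SD of 0.03, the smallest of the 35 probe sets in that group. In the sleep-deprived animals it ran from 9.20 to 9.53, and 6 of 8 were below every undisturbed animal. Its difference was -0.11 (SE 0.04) and was not called. The probe set 1436678_at had a difference of -0.13 (SE 0.05) with 7 of 8 animals below the undisturbed mean, and 1419667_at one of -0.01 (SE 0.06). After quantile normalization that of 1419667_at was 0.016. Sgce, mutated in inherited myoclonus-dystonia, had differences of -0.01 (SE 0.06) in 1420688_a_at, between 8.48 and 8.84 in undisturbed and 8.44 and 8.89 in sleep-deprived animals, and of -0.03 (SE 0.08) in a probe set with a mean signal of 4.36.

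**Figure D3:**
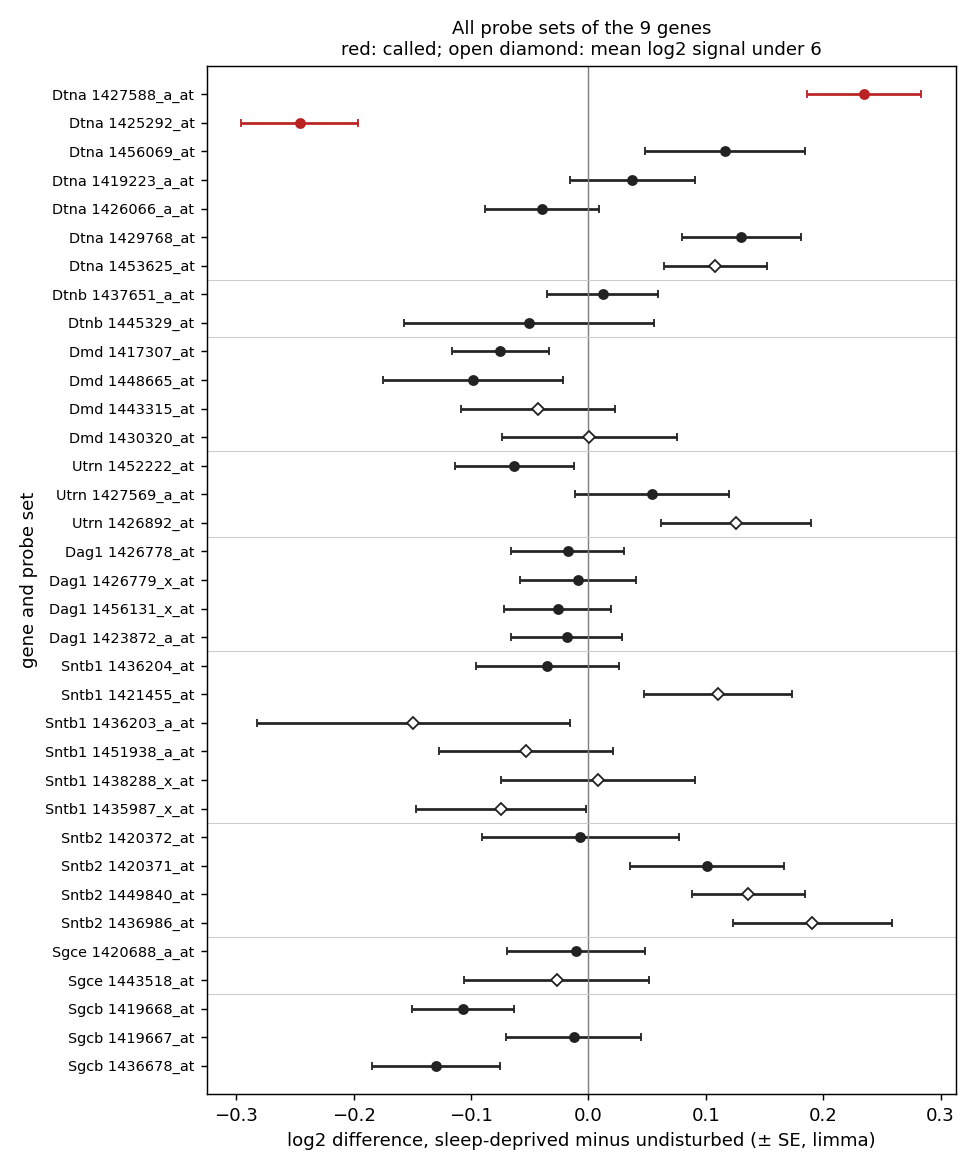
Log2 difference, sleep-deprived minus undisturbed, of all 35 probe sets with its SE from limma, grouped by gene and ordered by mean signal within a gene. The 2 called probe sets, both of Dtna, are red and lie at 0.24 and -0.25, and open diamonds mark the 12 probe sets with a mean signal below 6.

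The further genes of the complex and of its surroundings were read through the probe set of highest mean. Their counts stand beside 0.584% of all probe sets called higher, 1.23% called lower and 15.3% with an unadjusted p under 0.05 (7.31% higher and 8.02% lower). Those shares are of bright and dim probe sets together, so they are not matched to these genes in signal. The 23586 probe sets with a mean signal of 6 or more had a median difference of -0.0173, and 42.2% were positive. Fitted alone, 1332 of them were called. Of 6 measured other subunits, from a list of 9 (the remaining sarcoglycans and syntrophins, sarcospan and Drp2) none was called, by limma or by an unequal-variance test, and 3 had an unadjusted p under 0.05, all lower. Their median difference was -0.095. Of 12 measured extracellular ligands of dystroglycan, from a list of 13, 1 fell, the guidance molecule gene Slit2, from 9.37 ± 0.13 (SD, n = 9) to 9.11 ± 0.05 (SD, n = 8), a difference of -0.27 (SE 0.05), with a list median of -0.064. An unadjusted p under 0.05 was found for 4 of the 12 ligands, all lower. Of 13 measured enzymes of the sugar chain of dystroglycan, from a list of 21, none was called by limma or an unequal-variance test. An unadjusted p under 0.05 was found for 5 of them, 1 higher and 4 lower, and the median was -0.032. Of 16 measured intracellular binding partners, from a list of 18, 1 fell, Mast1, a kinase gene whose product binds syntrophins, from 9.41 ± 0.13 (SD, n = 9) to 9.12 ± 0.12 (SD, n = 8), a difference of -0.30 (SE 0.06), with a list median of -0.048 and 3 unadjusted p-values under 0.05, all lower. The endfoot water channel gene Aqp4, one of these partners, lay at -0.06 (SE 0.08).

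A measure that the choice of members had not used was whether probe sets of a gene followed each other from animal to animal inside a group. Each further probe set was set against the one of highest mean, 26 pairs in all, with exact two-sided permutation tests. In the 9 undisturbed animals Pearson's r ran from -0.33 to 0.74 with a median of 0.17, and 0 of 26 pairs passed after Benjamini-Hochberg adjustment over the 26, by Pearson's r or Spearman's rho, with 1 unadjusted p under 0.05 by each. In the 8 sleep-deprived animals r ran from -0.46 to 0.80 with a median of 0.26, 0 pairs passed by either measure and 2 had an unadjusted p under 0.05 by Pearson's r. At these numbers of animals only a close relation could pass.

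The genes differed in their range of r. The 3 pairs of Dag1 lay between 0.50 and 0.63 in undisturbed and between 0.53 and 0.78 in sleep-deprived animals, and the 3 pairs of Dmd between 0.31 and 0.63 and between 0.40 and 0.62. The 6 pairs of Dtna lay between -0.33 and 0.26 and between -0.16 and 0.25. All 6 are pairs with 1427588_a_at, and how the other Dtna probe sets followed each other was not examined. Other genes had low values too: the pair of Dtnb had r = -0.30 and 0.19, that of Sgce -0.18 and -0.46, and the 3 pairs of Sntb2 lay between -0.14 and 0.12 and between 0.19 and 0.32. Without the 2 undisturbed animals farthest from the median of the brighter probe set, r lay between -0.15 and 0.191 for Dag1. It then lay between -0.421 and 0.405 for Dmd and between -0.635 and 0.555 for Dtna, so these ranges overlapped. For the called Dtna probe sets r was 0.059 (exact permutation p = 0.88, adjusted p = 0.95) and rho 0.00 (exact permutation p = 1.0, adjusted p = 1.0) in the 9 undisturbed animals. Leaving out the 2 animals farthest from the median gave r = 0.026. The highest Pearson's r in the undisturbed group was that of 1419668_at and 1436678_at of Sgcb, with r = 0.74 (exact permutation p = 0.027, adjusted p = 0.60) and rho = 0.67 (exact permutation p = 0.055, adjusted p = 0.54), and r was 0.48 without the 2 animals farthest from the median and 0.26 in the sleep-deprived group. The highest rho was that of 1426778_at and 1456131_x_at of Dag1, at 0.88 (exact permutation p = 0.0031, adjusted p = 0.080), with r = 0.63 (exact permutation p = 0.070, adjusted p = 0.60) and r = 0.18 without the 2 farthest animals. Whether the genes differ in these correlations was not tested.

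**Figure D4:**
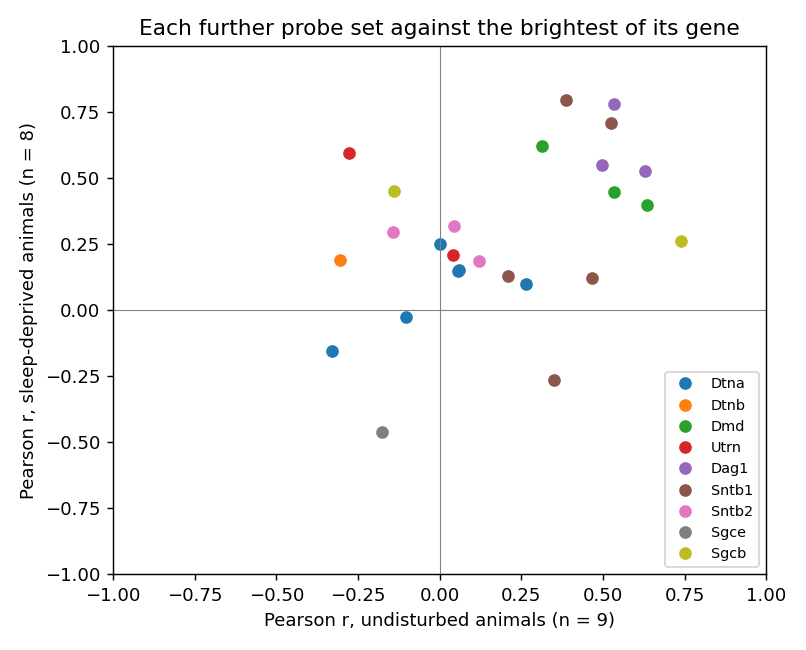
Pearson's r between each further probe set and the probe set of highest mean of the same gene, in the 9 undisturbed animals (horizontal) and the 8 sleep-deprived animals (vertical), coloured by gene. The points of Dag1 and Dmd lie at 0.31 or above on both axes. Those of Dtna, all of them pairs with 1427588_a_at, lie at 0.26 or below on both. Without the 2 undisturbed animals farthest from the median of the brighter probe set, the ranges of r of Dag1, Dmd and Dtna overlapped in that group.

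Between genes, the probe sets of highest mean formed 36 pairs. In the undisturbed animals r ran from -0.68 to 0.67 with a median of -0.040, and 0 pairs passed after adjustment over the 36 by Pearson's r or Spearman's rho, with 2 and 1 unadjusted p-values under 0.05. Without undisturbed replicate 7, Dmd and Sntb1 passed with r = -0.89 (n = 8, exact permutation, adjusted p = 0.043). In all 9 animals that pair had r = -0.68 (exact permutation p = 0.046, adjusted p = 0.78) and rho = -0.60 (exact permutation p = 0.096, adjusted p = 0.89), and in the sleep-deprived group r was 0.26. Among the 8 sleep-deprived animals r ran from -0.67 to 0.88 and 0 pairs passed by either measure, with 1 unadjusted p under 0.05 by Pearson's r. Against the mean levels of choroid plexus, astrocyte, endothelial and oligodendrocyte markers, 36 relations in the undisturbed animals, 0 passed and 4 had an unadjusted p under 0.05 by Pearson's r. The smallest of these p-values was that of Sgce with choroid plexus markers, r = 0.79 (exact permutation p = 0.0062, adjusted p = 0.22) and rho = 0.85 (exact permutation p = 0.0061, adjusted p = 0.22), which was 0.44 without the 2 animals farthest from the median Sgce level. The Dtna probe set 1427588_a_at had r = -0.70 with endothelial markers (exact permutation p = 0.036, adjusted p = 0.32) and rho = -0.75 (exact permutation p = 0.026, adjusted p = 0.46), and r was -0.65 without the 2 farthest animals. The remaining relations of these 4 were with endothelial markers too. Utrn had r = 0.73 (exact permutation p = 0.026, adjusted p = 0.32) and rho = 0.62 (exact permutation p = 0.086, adjusted p = 0.53). Sntb2 had r = -0.70 (exact permutation p = 0.032, adjusted p = 0.32) and rho = -0.60 (exact permutation p = 0.097, adjusted p = 0.53).

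The genes with patterns most like those of the called Dtna probe sets were found among all single-symbol probe sets by Pearson's r of deviations from the group means over 17 arrays. For 1427588_a_at these were Zfp469 (r = 0.83), Celf1 (0.83) and Zfp580 (0.82). For 1425292_at they were Mef2a (0.92), Arhgap21 (0.91) and Rnf214 (0.89). No gene was in both of these lists. Among the other 5 Dtna probe sets, 1456069_at was nearest to Usp45, Ptprz1 and Snapin (0.891 to 0.939), and 1429768_at to Fip1l1, Zbtb1 and Lig4 (0.827 to 0.859). For 1419223_a_at the nearest were Nicn1, Ezh1 and Cops7a (0.809 to 0.903) and for 1426066_a_at Sprn, Cops7a and Sdf4 (0.856 to 0.902), so these lists share Cops7a. The dim 1453625_at was nearest to Thoc1, Ammecr1l and Zfp566 (0.76 to 0.786). For the probe set of highest mean of the other genes, the nearest were Naa35, Peg12 and Stx6 for Dtnb (0.847 to 0.87), Cacnb4, Apc and Cobll1 for Dmd (0.744 to 0.788), and Slc1a5, Ctxn3 and Plekhb2 for Utrn (0.836 to 0.845). They were Dcaf7, Gaa and H2ax for Dag1 (0.918 to 0.925), Ndufa6, Nts and Srp9 for Sntb1 (0.821 to 0.84), and Smcp, Gpr107 and Pkp3 for Sntb2 (0.775 to 0.795). For the sarcoglycans they were Lamp2, Gtsf1 and Ran for Sgce (0.821 to 0.853) and Ppp3cb, Hnrnpk and Ola1 for Sgcb (0.885 to 0.892). These are the highest values in a search over all such probe sets on 17 arrays that share their normalization, and they are given as a description.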

How the data were processed

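Hippocampal RNA of 17 mice was measured on 1 Affymetrix array per animal, and groups were taken from the sample titles. The authors deposited log2 signals, 1 per probe set and array, and per the submitters' processing notes RMA and the affy package were used. The log base was read from the range of the values, and tool versions and the order of steps are not known here. RMA brings the distributions of the arrays close together, which can hide a shift common to most transcripts, and it compresses differences of dim probe sets. The deposited distributions were not identical. Array medians ran from 6.14 to 6.22, and a further quantile normalization turned the sign of 9 of the 35 members, none of them called. Arrays have no read depth, and their number limits the precision.

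Of 45101 probe sets 64 manufacturer's controls were left out. Gene symbols came from the platform annotation, which gave 34945 probe sets 1 symbol, 932 several and 9160 none. Differences were fitted with limma 3.58.1 (R 4.3.3, lmFit and eBayes, group means) over all 45037 remaining probe sets, with Benjamini-Hochberg adjustment and a threshold of 0.05. Differences between probe sets of 1 gene were fitted likewise over 16752 pairs. Correlations inside a group were tested by exact permutation of pairings (numpy 2.4.6, Python 3.11.15). The limma fits and the permutation test were tested on simulated data: of 100 probe sets changed by 0.25 on the log2 scale 44 were called, and of 100 changed by 0.5, 98 were called, among 45037. In that run 9 unchanged probe sets were called too. Its noise was independent between probe sets, and fewer were changed than the 816 called in the data. The shares recovered may therefore differ in the real fit.

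The members, lists and naming rule were chosen with earlier results of these data known. The rule named all member probe sets, called genes of the 4 lists of partners and the 3 nearest genes by correlation for each Dtna probe set and each gene's brightest probe set; Gjb6, Slco1a4, Tek, Cldn5, Pdgfrb and Aqp4 were named outside it, after their values were seen. Marker lists for meninges, oligodendrocytes, neurons and microglia had no called gene (limma), with 0, 0, 1 and 2 unadjusted p-values under 0.05 and 0 calls by an unequal-variance test. Differences were negative in 6 of 8, 6 of 7, 7 of 7 and 5 of 7 of their genes, with medians of -0.073, -0.080, -0.081 and -0.044. Promoter windows came from RefSeq, build GRCm38.p6, with entries for 5 of 9 genes (Dtnb, Dmd, Utrn, Dag1 and Sgcb). The labels give replicate numbers only and do not say whether same-numbered animals of the groups belong together. The correlation of their deviations ran from -0.068 to 0.39, which does not settle it, and the main fit did not pair them. The alternatives were quantile normalization, median centring, a signal filter, eBayes with trend and robust options, an unequal-variance test, a replicate block, covariates for RNA integrity and choroid plexus, a stricter threshold and each array left out. Cyclic loess was added after seeing the data.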

Additional observations from a re-analysis of the deposited data

Results flagged for a closer look

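In 5 of 70 groups of animals (35 probe sets in 2 groups), 1 animal stood apart from the others by Dixon's criterion, which chance alone meets in about 1 in 20 groups. In undisturbed animals these were replicate 2 for Dag1 1423872_a_at, at 8.28 with the next animal at 8.12, replicate 6 for Sntb2 1420372_at, at 6.63 with the next at 6.93, and replicate 8 for Sntb2 1449840_at, at 3.68 with the next at 3.88. In sleep-deprived animals replicate 2 was high for Dag1 1456131_x_at, at 8.67 with the next animal at 8.49, and low for Sntb1 1435987_x_at, at 3.52 with the next at 3.81. None of these probe sets was called, and no Dtna value was among them.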

How the results depend on the processing

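The 35 probe sets gave 898 values over 26 alternatives to the fit, counting each of 17 arrays left out. Except at a stricter threshold, no called value lost its call or turned its sign, and no other probe set gained a call. Among values that were never called, 64 turned sign, in 13 probe sets. The difference of 1427588_a_at ran from 0.22 to 0.28 under other settings and from 0.21 to 0.25 without 1 array, and that of 1425292_at from -0.26 to -0.21 and from -0.26 to -0.22. At a stricter threshold of 0.01 the counts of members called higher and lower were both 0 in limma, from 1 and 1, with 8 unadjusted p-values under 0.05. The change between the called Dtna probe sets was called in every alternative run on pairs (-0.51 to -0.45). Dtna was chosen for this change, so nothing is read from those calls. The number of member pairs called was 2 and ran from 1 to 3 without 1 array. Between genes, 0 or 1 correlation passed without 1 array. With the replicate block the Dtna differences were 0.24 and -0.26, and the block changed no call among the members. It gave 959 calls over all probe sets, against 816 without it, and 2 of 8 sleep-deprived arrays correlated best with their own number. Over all probe sets 541 were called by an unequal-variance test and 1332 of 23586 with the signal filter. Signal limits the 12 probe sets below 6, of which Sntb1 has 5. In the simulation 44 of 100 differences of 0.25 were called, so members with differences of that size can go uncalled.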
